A study of Homo sapiens with 12 samples.

Results

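Nucleoporins, importins, exportins and transportins form the machinery that carries proteins and RNA between nucleus and cytoplasm. Their genes were taken from the expression table by symbol, as every row starting with NUP, KPNA, KPNB, IPO, XPO or TNPO followed by a digit. The rule found 44 of 17520 genes, of which 21 were nucleoporin (pore) genes and 23 were transport receptor genes. The rule used no measured value. The samples were HEK293E cells, an established human embryonic kidney line, which had been kept without serum overnight. In the Torin1 groups cells received Torin1 at 250 nM, which blocks the catalytic site of mTOR, before 200 nM insulin for 30 h. In the insulin groups cells received 200 nM insulin for 30 h without Torin1, and no group without insulin was part of the design. Each condition had 3 libraries of poly(A)-selected input RNA and 3 miCLIP samples, in which an antibody against N6-methyladenosine (m6A) marks methylated adenosines through substitutions in the reads.

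The nuclear pore complex is a channel through the nuclear envelope. A scaffold of an outer ring (the Y complex) and an inner ring is anchored by transmembrane nucleoporins. Nucleoporins rich in phenylalanine-glycine (FG) repeats fill its centre and bind transport receptors. Importin alpha binds classical nuclear localization signals and is carried inward by importin beta, while other members of the importin beta family bind cargo directly. Exportins carry cargo outward when bound to the GTPase Ran, which is kept in its GTP form in the nucleus and in its GDP form in the cytoplasm. mTOR is a kinase that couples growth to nutrients and growth factors.

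The 3 Torin1 input libraries held 11.4 M normalized units each, and the 3 insulin input libraries 12.4 to 12.5 M. Low values fell on a regular grid whose step gives 8.20 and 11.1 M reads in Torin1 replicates 3 and 2, and 7.32 to 11.8 M in the insulin libraries. No such step of at least 1 unit was found in Torin1 replicate 1. In Torin1 replicate 2 and insulin replicate 3 the step was close to 1 unit. By chance 97.3% and 94.7% of whole numbers fall on such grids, so these depths are uncertain. As far as the steps hold, depth in the libraries other than Torin1 replicate 1 was similar in both groups. The protocol speaks of biological replicates but does not mention separate cultures, and p-values here cover only the sample-to-sample spread, part of which may be technical. Of 5 genes chosen because HEK293 cells are known to express them, NEFL had no values. Of the other 4, 3 passed the filter on low values (VIM, NEFM and LHX1) and PAX2 was at 6 to 11 units in every library. These markers moved apart. VIM had 7908 to 7935 units in Torin1 libraries and 2858 to 2984 in insulin libraries, and made up most of the summed level of 8150 to 8180 and 3227 to 3265 units. NEFM had 71 to 96 and 141 to 221 units and was called lower, and LHX1 had 139 to 153 and 131 to 137 units and was not called. Among markers of other cells HBB (blood), PECAM1 (stroma) and the keratins KRT5 and KRT14 (epithelium) had no values. Of those with values 2 of 5 for blood passed the filter, 2 of 5 for stroma (fibroblasts and endothelium) and 0 of 3 for epithelium. The last 3 were TP63 of keratinocytes and ALB and APOA1 of hepatocytes. The summed blood markers were 2 to 11 units in Torin1 libraries and 105 to 123 in insulin libraries. The summed stromal markers were 529 to 549 units in Torin1 libraries and 192 to 243 in insulin libraries, and the epithelial markers 9 to 16 and 12 to 20 units. Of the blood list CD3E and PTPRC were at 0 or 1 unit in every library, while CD14 had 6, 6 and 0 units in Torin1 libraries, against 95, 85 and 86 in insulin libraries, and HBA1 had 3, 2 and 0, against 26, 25 and 17. The stromal sum was mostly COL1A1, with 487 to 511 units in Torin1 libraries and 180 to 233 in insulin libraries, and the part of other cell types in the results below was not tested.

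Transport genes shifted in both directions, with more members lower than higher in the deposited scaling. Expression was compared with limma on log2(value + 1), fitted over all 13842 genes with at least 10 units in at least 3 libraries, and calls are Benjamini-Hochberg adjusted p-values below 0.05. Fold changes on this scale understate the change of low genes. With Torin1 14 of the 44 members were higher, 27 were lower and 3 were not called. Called members were 93.2% of the members, against 86.0% of all tested genes, and the ranges of both groups did not overlap in 41 members, against 86.3% of all tested genes. Of all tested genes 43.4% were called higher and 42.5% lower. A share this close to the background says little about the members, since most of the transcriptome was called. The median log2 fold change was -0.30 over the members and 0.02 over all tested genes. A change beyond 1.5-fold, tested with limma's treat, was called in 14 of 44 members (31.8%), 5 higher and 9 lower, against 47.5% of all tested genes. All 44 members passed the filter, but NUP210L and KPNA7 passed it only through the insulin libraries, so that they had to differ, and without them 14 were higher and 25 lower. Scaling the libraries to equal totals moved the median of all genes to 0.14, which raises every log2 fold change by about the same amount.

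The median changes of pore and receptor genes were close. Of the 21 nucleoporin genes 6 rose, 12 fell and 3 were not called, with a median log2 fold change of -0.26. Of the 23 receptor genes 8 rose and 15 fell, with a median of -0.32. The medians differed by 0.05. Within each library the median log2 value of pore genes minus that of receptor genes had a pooled SD of 0.04. This spread is one of levels, not the error of the difference in median log2 fold change. With quantile normalization the nucleoporin median was 0.01 and the receptor median -0.09, and 8 nucleoporin genes were called higher and 9 lower. The median of all genes was then 0.0004, and 20 receptor genes were called, 8 of them higher. Beyond 1.5-fold were 4 nucleoporin genes (2 higher, 2 lower) and 10 receptor genes (3 higher, 7 lower), or 19.0% and 43.5% of each class, against 47.5% of all tested genes. Without NUP210L and KPNA7 they were 3 nucleoporin genes (2 higher, 1 lower) and 9 receptor genes (3 higher, 6 lower). The difference between these shares was not tested. Each class held members called beyond 1.5-fold in both directions, as the plot of log2 fold changes by role shows.

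**Figure D1:**
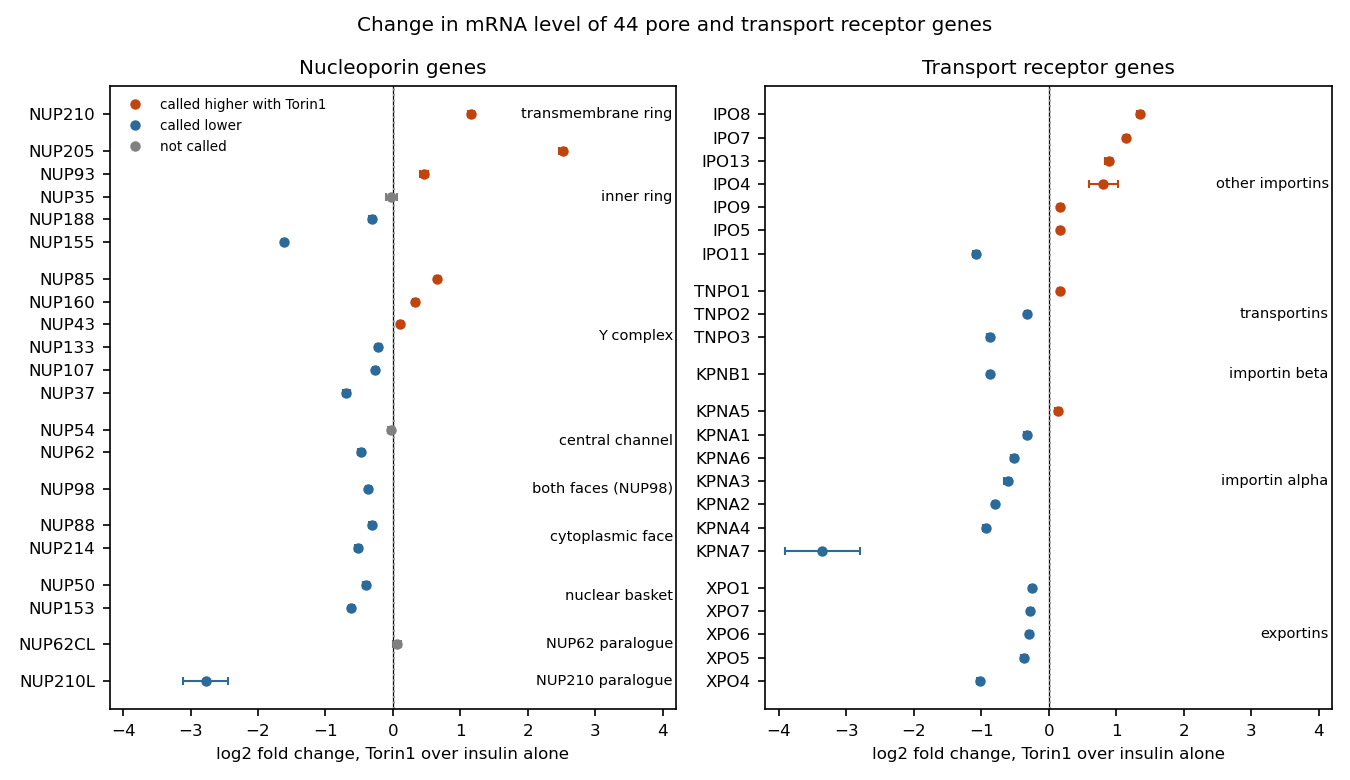
Log2 fold change (Torin1 over insulin alone) of the 44 members, grouped by role. Points are limma estimates from 3 against 3 libraries, bars are standard errors, colours give the call, and the dotted line is the median of all tested genes. NUP205 lies at 2.52 and NUP155 at -1.61 within the inner ring, while the 5 exportins lie between -1.02 and -0.24 (XPO6 and XPO7 at 0.02 and 0.04 with quantile normalization).

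The inner ring of the pore scaffold split most widely. NUP205 and NUP188 are large paralogous scaffold proteins that bind NUP93, and NUP155 links the inner ring to other parts of the scaffold. NUP205 (chromosome 7, 135557917 to 135648753, hg38) had 3573, 3541 and 3557 units in the Torin1 libraries, against 569, 655 and 643 in the insulin libraries. The groups were far apart, and the log2 fold change was 2.52 ± 0.05 (SE, limma adjusted p = 1.6e-22), or 5.72-fold. Only 3.44% of tested genes had a larger rise. NUP155 (chromosome 5, 37288137 to 37371106) went the other way, with 2309, 2438 and 2340 units in Torin1 libraries, against 7333, 7314 and 7024 in insulin libraries. Its log2 fold change was -1.61 ± 0.03 (SE, limma adjusted p = 7.8e-22), which is 0.327 of the insulin level. NUP93, which holds the inner ring together, had 792, 764 and 783 units in Torin1 libraries, against 519, 569 and 608 in insulin libraries (0.47 ± 0.06, limma adjusted p = 1.1e-07). NUP188 had 3527, 3434 and 3704 units in Torin1 libraries, against 4721, 4441 and 4088 in insulin libraries (-0.31 ± 0.04, limma adjusted p = 4.1e-07), but was at 0.01 and not called with quantile normalization. NUP205 and NUP188 thus moved apart in the deposited scaling. NUP35, which binds NUP93 and NUP155, had 251 to 273 units in Torin1 libraries and 250 to 293 in insulin libraries. These ranges overlapped and the gene was not called (-0.02, limma adjusted p = 0.80), although quantile normalization put it lower at -0.26 (0.0059).

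The 150 bases before the annotated starts of NUP205 and NUP155 are shown because these inner ring genes had the largest rise and the largest fall among members that passed the filter in both groups. Sequences are from RefSeq, build GRCh38.p14, read 5′ to 3′ on the gene's strand, and capitals mark matches to the motifs given further down. The NUP205 sequence is chr7:135557767-135557916 on the plus strand, and the NUP155 sequence is chr5:37371107-37371256 on the minus strand.
NUP205: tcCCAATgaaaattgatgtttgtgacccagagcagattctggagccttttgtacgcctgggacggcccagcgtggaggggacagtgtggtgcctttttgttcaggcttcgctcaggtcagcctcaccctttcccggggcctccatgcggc
NUP155: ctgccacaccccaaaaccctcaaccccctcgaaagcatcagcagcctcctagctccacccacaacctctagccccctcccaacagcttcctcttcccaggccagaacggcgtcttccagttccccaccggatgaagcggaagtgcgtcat

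Among the nucleoporins of the membrane, NUP210 was the only one that the rule took besides its paralogue NUP210L. NUP210, a glycoprotein whose bulk lies in the lumen of the nuclear envelope, had 2416, 2478 and 2613 units in Torin1 libraries, against 1197, 1082 and 1081 in insulin libraries. The Torin1 libraries were all higher, with a log2 fold change of 1.16 ± 0.04 (SE, limma adjusted p = 6.0e-17). NUP210L, known mainly from testis, had 5, 3 and 4 units with Torin1 and 34, 37 and 28 with insulin alone (-2.78 ± 0.33, SE). It passed the filter only through the insulin libraries, so this value is a description. NUP62CL, a relative of NUP62, had overlapping ranges of 551 to 583 and 511 to 578 units and was not called at 0.06 (limma adjusted p = 0.38), but was called at 0.18 with scaling to equal totals.

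The 6 Y complex genes taken by the rule were evenly divided in the deposited scaling, 3 higher and 3 lower, none called beyond 1.5-fold. Over all tested genes 43.4% were called higher, 42.5% lower and 47.5% beyond 1.5-fold. The rule did not take SEH1L, SEC13 and AHCTF1, which also belong to this complex. SEH1L (-0.78) and AHCTF1 (-1.07) were called lower beyond 1.5-fold, and SEC13 was higher at 0.40. NUP85 had 1566, 1549 and 1586 units in Torin1 libraries, against 1018, 961 and 999 in insulin libraries (0.66 ± 0.04, limma adjusted p = 7.2e-13). NUP160 had 2923, 2910 and 2763 units in Torin1 libraries, against 2347, 2209 and 2282 in insulin libraries (0.33 ± 0.04, limma adjusted p = 1.8e-08). NUP43 was higher by only 0.11. NUP37 had 569, 584 and 559 units in Torin1 libraries, against 884, 954 and 929 in insulin libraries (-0.69 ± 0.05, limma adjusted p = 1.3e-11). NUP107 and NUP133 were lower by a smaller amount, at -0.26 and -0.21. With quantile normalization NUP107 was at 0.03 and not called, and NUP133 was called higher at 0.11, so their directions depend on the scaling.

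FG nucleoporins and genes on the faces of the pore, as far as the rule took them, were mostly lower in the deposited scaling. NUP62, the FG protein of the central channel, had 1268, 1248 and 1412 units in Torin1 libraries, against 1846, 1861 and 1735 in insulin libraries (-0.47 ± 0.05, limma adjusted p = 2.4e-09). Its gene body overlaps IL4I1 and ATF5. The strand setting of the counting is not given in the sources used here, so reads of these genes cannot be told apart. Gene bodies of NUP88, NUP188, IPO4, IPO11 and XPO5 also overlap those of other protein-coding genes. NUP54, the partner of NUP62 in the channel, was not called at -0.02 (limma adjusted p = 0.58), and was called higher with scaling to equal totals (0.10) and quantile normalization (0.22). NUP98, an FG protein made together with the Y complex subunit NUP96 from one precursor, had 2065, 2119 and 2067 units in Torin1 libraries, against 2628, 2766 and 2656 in insulin libraries (-0.36 ± 0.04, limma adjusted p = 1.9e-09). It was not called at -0.07 with quantile normalization.

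On the cytoplasmic face NUP214, an FG protein that binds the exportin XPO1, had 1242, 1282 and 1330 units in Torin1 libraries, against 1875, 1838 and 1800 in insulin libraries (-0.52 ± 0.04, limma adjusted p = 3.5e-11). Its partner NUP88 was at -0.31. In the nuclear basket NUP153 had 2815, 2836 and 2727 units in Torin1 libraries, against 4263, 4431 and 4172 in insulin libraries (-0.62 ± 0.03, limma adjusted p = 4.8e-14). NUP50, which helps to release importin alpha from its cargo, was at -0.40. NUP214, NUP88, NUP153 and NUP50 were lower in every Torin1 library than in any insulin library, as were 42.8% of all tested genes. TPR, a nuclear basket gene outside the rule, went the other way at 0.68 and was called higher beyond 1.5-fold. It had 5764 to 6102 units in Torin1 libraries, against 3646 to 3776 in insulin libraries.

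**Figure D2:**
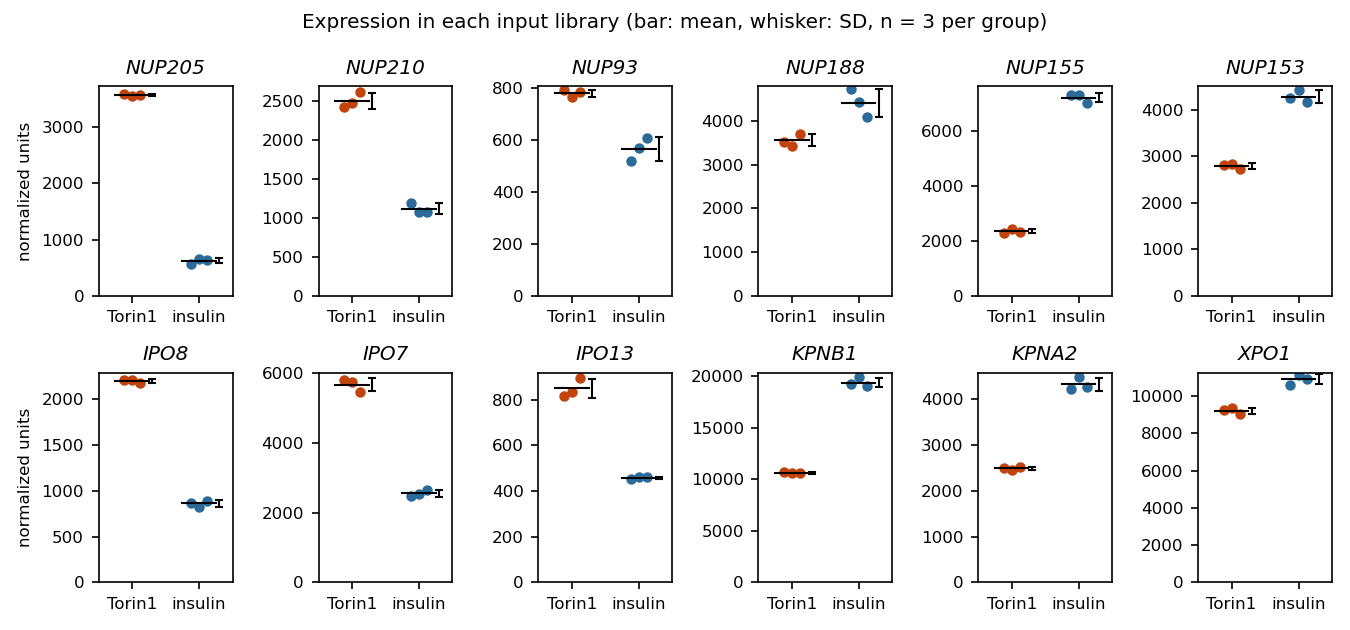
Normalized expression of 12 members in each input library, with Torin1 libraries on the left of each panel. Dots are libraries, bars are means and whiskers are SD (n = 3 per group). NUP205 lies at 3541 to 3573 units with Torin1 and 569 to 655 with insulin alone, and KPNB1 at 10563 to 10729 and 19043 to 19888.

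Among the receptors of the classical import route, importin beta and most importin alpha genes fell. KPNB1, importin beta (chromosome 17, 47649919 to 47685505, hg38), had 10729, 10594 and 10563 units in Torin1 libraries, against 19194, 19888 and 19043 in insulin libraries. The log2 fold change was -0.87 ± 0.03 (SE, limma adjusted p = 1.9e-18), or 0.549 of the insulin level. Of the 6 importin alpha genes other than KPNA7, 5 were lower and 1 higher, against 42.5% and 43.4% of all tested genes. Beyond 1.5-fold 2 were lower (KPNA4 and KPNA2), as were 22.5% of all tested genes. KPNA4 had 1184, 1113 and 1113 units in Torin1 libraries, against 2091, 2213 and 2227 in insulin libraries (-0.94 ± 0.04, limma adjusted p = 8.4e-16). KPNA2 (chromosome 17, 68035735 to 68046854), an importin alpha known for high expression in dividing cells, was at -0.80, with 2456 to 2510 units in Torin1 libraries and 4213 to 4473 in insulin libraries. RefSeq names 3 pseudogenes of KPNA2, and the authors' counting may have split reads between such copies. Other members have named pseudogenes too, among them NUP50 with 4, NUP210 and TNPO1 with 3 each and IPO7 with 2. KPNA3 was at -0.61, KPNA6 at -0.52 and KPNA1 at -0.32. KPNA5 was higher, at 0.14 with 1514 to 1578 units in Torin1 libraries, against 1405 to 1412 in insulin libraries (limma adjusted p = 0.0027). KPNA7, the importin alpha gene that passed the filter only through the insulin libraries, was near the detection limit, with 1, 0 and 0 units with Torin1 and 14, 10 and 12 with insulin alone.

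The other importins, which bind cargo without an adapter, mostly rose. Of these 7 genes 6 were higher and 1 lower, against 43.4% and 42.5% of all tested genes, with a median of 0.81. The difference from these shares was not tested. IPO8 had 2212, 2213 and 2178 units in Torin1 libraries, against 869, 823 and 892 in insulin libraries (1.35 ± 0.04, limma adjusted p = 9.9e-19). Its close paralogue IPO7, which imports ribosomal proteins among other cargo, had 5796, 5739 and 5452 units in Torin1 libraries, against 2468, 2527 and 2656 in insulin libraries (1.15 ± 0.04, limma adjusted p = 1.0e-18). In both paralogues every Torin1 library was above every insulin library, as in 43.5% of all tested genes, with rises of 2.55-fold and 2.22-fold. IPO13, which carries cargo in both directions, had 817, 833 and 896 units in Torin1 libraries, against 451, 459 and 461 in insulin libraries (0.89 ± 0.05, limma adjusted p = 3.9e-13). IPO4, an importer of histones and ribosomal proteins, was low, with 55, 45 and 74 units with Torin1 and 43, 28 and 27 with insulin alone (0.81 ± 0.22, limma adjusted p = 0.0017). IPO9 had 4039, 3965 and 4018 units in Torin1 libraries, against 3597, 3600 and 3471 in insulin libraries (0.17 ± 0.03, limma adjusted p = 3.1e-05), and IPO5 was also at 0.17. IPO11 was the exception, with 721, 691 and 692 units in Torin1 libraries, against 1461, 1510 and 1470 in insulin libraries (-1.08 ± 0.04, limma adjusted p = 2.0e-16).

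The same stretch before the start is shown for IPO7 and IPO8, the paralogues that rose together, and for KPNA2 from the importin alpha genes that fell. These are chr11:9384502-9384651 on the plus strand, chr12:30695870-30696019 on the minus strand and chr17:68035585-68035734 on the plus strand (GRCh38.p14).
IPO7: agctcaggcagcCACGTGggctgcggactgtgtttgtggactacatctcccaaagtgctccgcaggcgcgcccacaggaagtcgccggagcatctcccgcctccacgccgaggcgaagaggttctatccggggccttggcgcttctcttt
IPO8: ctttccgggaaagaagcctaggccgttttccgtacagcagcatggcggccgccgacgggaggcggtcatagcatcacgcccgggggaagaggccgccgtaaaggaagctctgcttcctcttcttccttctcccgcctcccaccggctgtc
KPNA2: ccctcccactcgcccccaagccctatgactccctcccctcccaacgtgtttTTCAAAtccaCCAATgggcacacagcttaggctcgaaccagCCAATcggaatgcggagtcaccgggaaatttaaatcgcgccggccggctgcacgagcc

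Transportins were divided, and exportins fell in the deposited scaling. TNPO1, which imports RNA-binding proteins, was at 0.16 and its paralogue TNPO2 at -0.32, although TNPO2 was at -0.0048 and not called with quantile normalization. TNPO3, which imports SR splicing factors, had 1035, 999 and 1021 units in Torin1 libraries, against 1872, 1890 and 1848 in insulin libraries (-0.88 ± 0.04, limma adjusted p = 1.3e-15). All 5 exportin genes were lower, as were 42.5% of all tested genes, with a median of -0.29. However, XPO6 and XPO7 were at 0.02 and 0.04 and not called with quantile normalization. XPO1, the exporter of proteins with leucine-rich signals, had 9264, 9353 and 9044 units in Torin1 libraries, against 10625, 11146 and 10941 in insulin libraries (-0.24 ± 0.03, limma adjusted p = 6.4e-08). XPO4 had 1256, 1298 and 1248 units in Torin1 libraries, against 2650, 2534 and 2542 in insulin libraries (-1.02 ± 0.04, limma adjusted p = 3.0e-17), the largest fall among the exportins and the only one beyond 1.5-fold. XPO5, which exports microRNA precursors, was at -0.37, XPO6, the exporter of actin, at -0.29 and XPO7 at -0.27.

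Promoters of the members were searched for 6 motifs within 250 bases before the start, on both strands. RefSeq promoter sequences matched 38 of the 44 members, and KPNB1, KPNA4, KPNA5, KPNA7, NUP43 and XPO7 had no entry. The motifs were CACGTG (E-box), CCAAT (bound by NF-Y), CCGGAAG (bound by ETS factors), GCGCATGC (part of the NRF1 palindrome, whose strands overlap), GGGCGG (GC box) and TTTGAA (cell cycle homology element). Shares are given beside those in 15843 promoters of protein-coding genes. CCGGAAG occurred in 40.0% of 20 nucleoporin promoters and 11.1% of 18 receptor promoters, against 11.8% of all promoters. CCAAT occurred in 50.0% of the members' promoters, against 34.5% of all. The E-box occurred in 15.8% of members, against 7.84% of all, TTTGAA in 21.1%, against 10.8%, GCGCATGC in 10.5%, against 3.70%, and the GC box in 52.6%, against 56.0%. Members called higher held CCAAT in 41.7% and members called lower in 52.2%. The E-box was in the promoters of IPO4, IPO7, KPNA3, NUP188, NUP50 and TNPO2, which did not share a direction. These matches describe letters in a window and carry no test. Some lie in the 100 bases before the stretches printed here, as does the TTTGAA match of NUP205 and the GC box of NUP155.

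Other genes of nuclear transport, from lists of 43 symbols, also split. NUP58, NUP42 and TMEM48 had no values, being other names of NUPL1, NUPL2 and NDC1, which were listed too. NUPL1 and NUPL2 are nucleoporin genes that the rule missed because of these symbols. The 40 genes with values all passed the filter. Of these, 13 were higher, 23 lower and 4 not called (90.0% called, against 86.0% of all tested genes). Their median log2 fold change was -0.30. Among 13 other nucleoporin genes 4 rose and 8 fell. NDC1, a transmembrane nucleoporin that anchors the pore, had 3000, 2972 and 2979 units in Torin1 libraries, against 364, 425 and 412 in insulin libraries (2.90 ± 0.05, limma adjusted p = 6.5e-23). RANBP2, the large FG nucleoporin of the cytoplasmic filaments, was at -1.21 (2632 to 2774 units in Torin1 libraries, against 6049 to 6510 in insulin libraries). AHCTF1, which seeds pores on chromatin, was at -1.07 and RAE1, an mRNA export factor at the pore, at -1.04. Of 6 Ran cycle genes 2 rose and 3 fell, with the GTPase activator RANGAP1 at 0.91, RAN itself at 0.58, the Ran-binding protein genes RANBP1 at -0.87 and RANBP3 at -0.67. Of 5 other receptor genes 2 rose and 2 fell. XPOT, the tRNA exporter, was at -1.29, SNUPN, the importer of small nuclear ribonucleoproteins, at 1.11, RANBP17 at 0.18 and CSE1L, which returns importin alpha to the cytoplasm, at -0.10. CSE1L was at 0.02 and not called with scaling to equal totals and was called higher at 0.15 with quantile normalization. RANBP17 had overlapping ranges of 335 to 348 units in Torin1 libraries and 274 to 337 in insulin libraries. It was not called with quantile normalization (0.0006) or with no filter beyond a value above 0. RANBP17 was not called without any single replicate other than insulin replicate 3 (limma adjusted p = 0.058, 0.081 and 0.090 without Torin1 replicates 1 to 3, and 0.18 and 0.075 without insulin replicates 1 and 2). Of 16 mRNA export genes 5 rose and 10 fell, with THOC7 of the THO complex at 1.84, the adapter ALYREF at -1.37, the export receptor NXF1 at -1.35 and its partner NXT1 at -1.31.

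**Figure D3:**
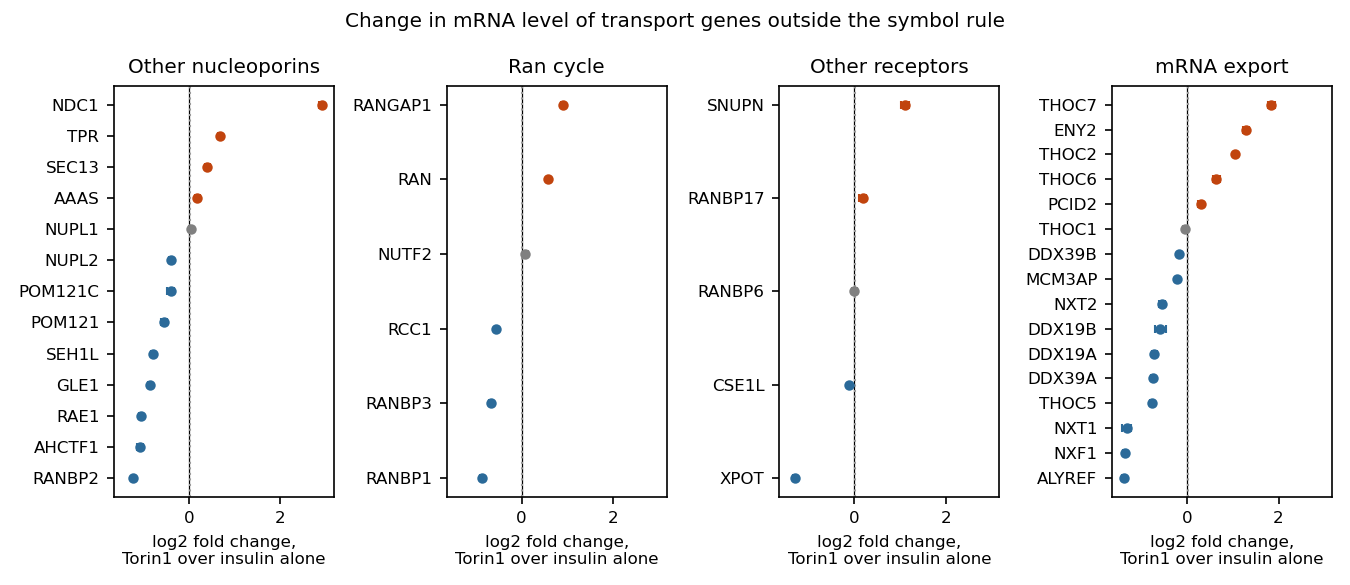
Log2 fold change (Torin1 over insulin alone) of 40 transport genes outside the symbol rule, in 4 lists. Points are limma estimates from 3 against 3 libraries, bars are standard errors, colours are as in the plot by role (red higher, blue lower, grey not called), and the dotted line is the median of all tested genes. NDC1 lies at 2.90, while NXF1, NXT1 and ALYREF lie between -1.37 and -1.31.

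The m6A sites came as a single authors' list for each condition, in which a position appears once, under 1 replicate. Numbers of sites therefore have no replicate test. Sites were given to a member where they lay in its gene body (RefSeq, GRCh38.p14) and in no other protein-coding gene body, on its strand. The members held 239 sites in the Torin1 list and 328 in the insulin list. Nucleoporin genes held 87 with Torin1 and 142 with insulin alone, and receptor genes 152 and 186. Of the Torin1 sites 213 were listed under replicate 1, 5 under replicate 2 and 21 under replicate 3, against 173, 137 and 18 of the insulin sites. Under replicate 1 alone the order was the opposite, with 213 sites with Torin1 and 173 with insulin alone. The ratio of Torin1 to insulin sites was 0.729 over the members, against 0.659 over all sites in exactly 1 protein-coding gene body, and 1.23 against 1.11 under replicate 1. For nucleoporin genes it was 0.613 and, under replicate 1, 1.03, and for receptor genes 0.817 and 1.38. Each site rested on few reads, with medians of 18 reads and 1 substituted read in the Torin1 list and 10 reads and 1 substituted read in the insulin list.

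**Figure D4:**
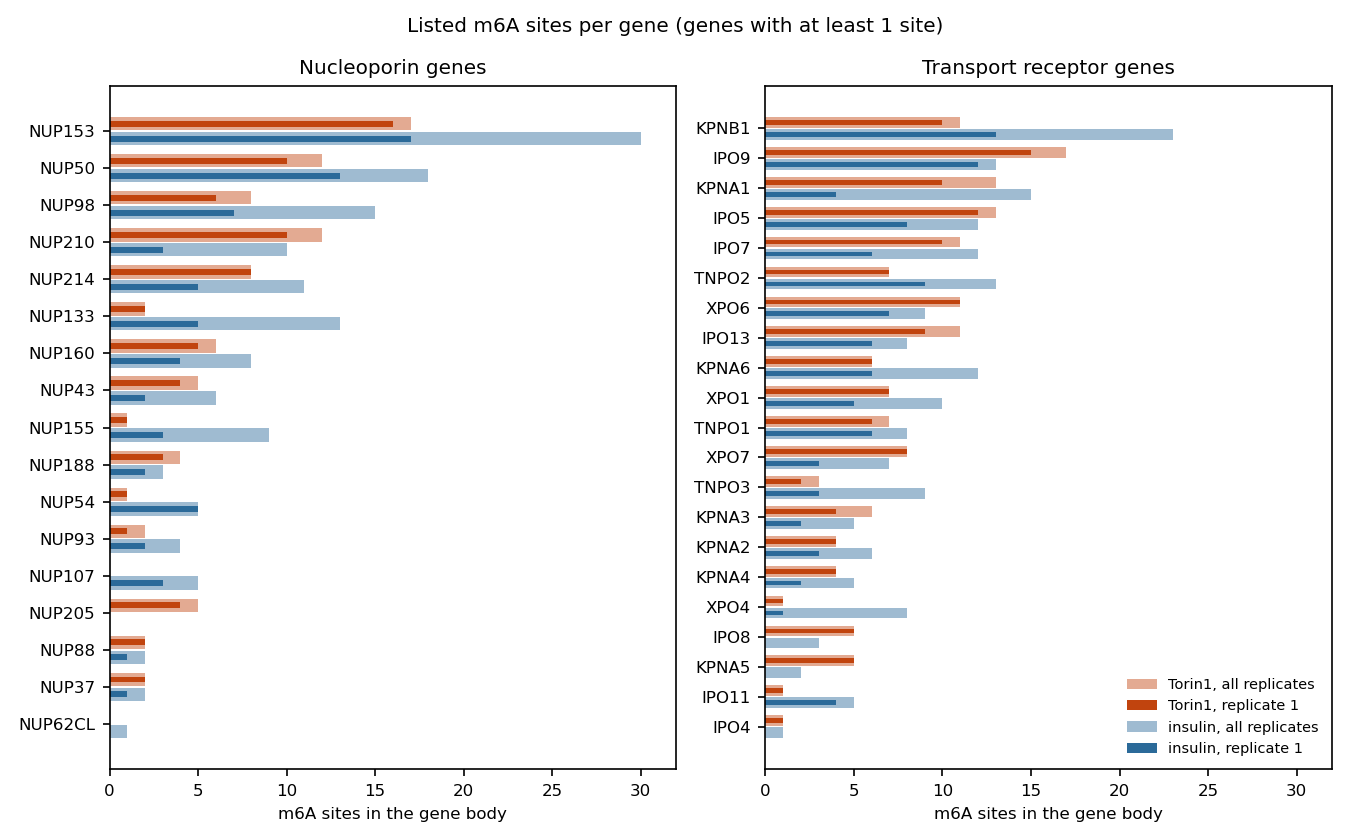
Listed m6A sites per gene body for members with at least 1 site, with the Torin1 bars above the insulin bars. Wide pale bars count sites of all replicates, narrow dark bars those listed under replicate 1. NUP153 held 17 sites with Torin1 and 30 with insulin alone, but 16 and 17 under replicate 1.

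Both lists held 107 of the members' positions. They made up 44.8% of the Torin1 sites (Wilson 95% interval 38.6% to 51.1%) and 32.6% of the insulin sites (27.8% to 37.9%). Over all sites in exactly 1 protein-coding gene body these shares were 44.5% and 29.3%, which lie within the intervals. The intervals cover counting error only and treat sites as independent, although many lie in the same gene. NUP153 alone held 11 of the shared positions, so the comparison with all genes is a description. Counted from the 3′ end of the gene body, the last 2000 nt held 32 of 87 Torin1 and 39 of 142 insulin sites of nucleoporin genes, and 28 of 152 and 34 of 186 sites of receptor genes.

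The 6 positions in both lists with the most substituted reads are given with their 5 bases from the authors' lists, in which the capital marks the methylated adenosine. The ranking uses substituted reads summed over both lists, so it favours positions with deep coverage and leaves out sites in 1 list. A KPNB1 site in the insulin list alone had 12 of 72 reads substituted. At all 6 shared positions both entries were listed under replicate 1.
XPO1, chromosome 2, position 61537949, minus strand: ggAct
KPNA6, chromosome 1, position 32171068, plus strand: ggAca
XPO6, chromosome 16, position 28098211, minus strand: ggAca
NUP210, chromosome 3, position 13316901, minus strand: ggAct
IPO9, chromosome 1, position 201878409, plus strand: agAct
IPO7, chromosome 11, position 9445264, plus strand: gaAct

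At the XPO1 position 10 of 580 reads were substituted with Torin1 and 10 of 236 with insulin alone. At the KPNA6 position these were 14 of 62 and 1 of 21, and at the XPO6 position 11 of 121 and 2 of 23. At the NUP210 position, 666 nt from the annotated end of the gene, they were 11 of 98 and 2 of 24. At the IPO9 position they were 10 of 71 and 3 of 16, and at the IPO7 position 7 of 76 and 4 of 9. More reads covered all 6 positions in the Torin1 list. Of all member sites, ggAca made up 11.3% with Torin1 and 13.4% with insulin alone, and ggAct 10.9% and 8.54%. Over all sites in genes ggAca made up 13.9% and 13.3%, and ggAct 12.2% and 11.1%.

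The nucleoporin genes with the most sites were NUP153 and NUP50. NUP153 had 17 sites with Torin1 and 30 with insulin alone, 11 of them at the same positions, and 16 and 17 under replicate 1. NUP50 had 12 and 18, or 10 and 13 under replicate 1. NUP98 had 8 and 15, or 6 and 7 under replicate 1. NUP133 had 2 and 13 sites (2 and 5 under replicate 1), and NUP155 had 1 and 9 (1 and 3). The reads over the listed sites of NUP155 were 2 with Torin1 and 67 with insulin alone, sums that also grow with the number of sites. Its mRNA was lower with Torin1.

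NUP205 had 5 sites in the Torin1 list, 4 of them under replicate 1, and 0 in the insulin list. Over all replicates no other member had a larger difference in favour of Torin1, but under replicate 1 it was larger in NUP210 (10 and 3 sites), KPNA1 (10 and 4), IPO8 (5 and 0), KPNA5 (5 and 0) and XPO7 (8 and 3). Its sites were covered by 42 reads in all, of which 6 were substituted, and its mRNA was 5.72-fold higher with Torin1. The site with the most reads, 22, lay 201 nt from the annotated end of the gene, with the 5 bases gaAct. NUP210 had 12 sites with Torin1 and 10 with insulin alone, or 10 and 3 under replicate 1, and 10 of the 12 and 5 of the 10 lay within 2000 nt of the end of the gene. No site was assigned to NUP85, NUP35 or NUP210L in either list. The body of NUP62 is shared with other genes throughout its sites, so that 14 sites with Torin1 and 20 with insulin alone on its strand were not assigned, and 3 and 8 sites on the strand of XPO5 lay in a region shared with POLR1C.

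Among the receptors KPNB1 had 11 sites with Torin1 and 23 with insulin alone, or 10 and 13 under replicate 1. The reads summed over these sites, which also depend on their number, were 493 and 1680. IPO9 had 17 and 13 sites, or 15 and 12 under replicate 1, with 909 and 236 reads. KPNA1 had 13 and 15 (10 and 4 under replicate 1) and IPO5 13 and 12 (12 and 8). IPO13 had more sites with Torin1, with 11 and 8 (9 and 6), as did XPO6, with 11 and 9 (11 and 7). KPNA5 had 5 and 2 (5 and 0), but its strand was taken from most of its sites. On either strand KPNA5 held 5 and 6. IPO7 had 11 and 12 sites and IPO8 5 and 3, or 10 and 6, and 5 and 0, under replicate 1. No site was listed for KPNA7.

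Site numbers were also summed by the call of the mRNA. The 14 members called higher held 100 sites with Torin1 and 87 with insulin alone, or 87 and 49 under replicate 1. The 27 members called lower held 138 and 235, or 125 and 119 under replicate 1. Sites were listed only where reads covered them. For members called higher the reads summed over their listed sites were 3962 with Torin1 and 1282 with insulin alone. For those called lower they were 5007 and 5334. These sums grow with the number of listed sites, so they are no separate measure of coverage. The part of transcript level in these site numbers was not tested.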

How the data were processed

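The analysis used 6 input libraries and 2 lists of m6A sites covering 6 miCLIP samples. The submitters' processing notes list STAR, BWA 0.7.1, DESeq, DESeq2 1.22.2 and the build hg38, with no roles. The expression values were deposited by the authors as a score, normalized between libraries and rounded, as the grid of low values in the file shows, so no test for raw counts was run. The m6A value deposited by the authors is a fraction, substituted reads over all reads at the site in 1 library, which its columns of reads bear out. The caller, its thresholds, the counter and its strand setting are not given in the sources used here.

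Expression was tested with limma 3.58.1 (R 4.3.3, variance trend) on log2(value + 1) for all genes with at least 10 units in at least 3 libraries, two-sided. The procedure was tested on simulated data. The strand of 38 members came from the RefSeq promoter table. That of KPNB1, KPNA4, KPNA5, XPO7 and NUP43 was the strand of most of their sites. KPNA7 had no site and was given no strand. Promoter entries were the first listed where a gene had several. Named genes were, per class, the 5 largest called rises and falls, plus KPNB1, XPO1, NUP98 and NUP62. For m6A they were the 5 members with the most sites, gains and losses. The 6 shared positions with the most substituted reads and up to 4 called genes per pathway list were also named. SEH1L, SEC13 and TPR were added for the parts of the pore they belong to. Other members are given briefly. The members, lists and tests were chosen with earlier results of these data known.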

Additional observations from a re-analysis of the deposited data

How the results depend on the processing

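The calls of members held best against filters and pseudocounts and least against quantile normalization. With pseudocounts of 0.5 and 5 and with no filter beyond a value above 0, all 44 members kept their call and direction. Leaving out any replicate gave 17 to 18 called nucleoporin genes (6 higher throughout and 11 to 12 lower), 22 to 23 receptor genes (8 higher and 14 to 15 lower), 35 to 36 of the other transport genes, and a difference between pore and receptor medians of 0.05 to 0.09. The members lost there were NUP210L and KPNA7, which no longer passed the filter without an insulin library. With quantile normalization the difference of medians was 0.10. Sign changes were counted only for genes called in either fit. Among members they were NUP188 (0.0089), NUP133 (0.11), XPO7 (0.038), XPO6 (0.016), NUP107 (0.034) and NUP54 (0.22). Among the other transport genes they were CSE1L (0.15), DDX39B (0.028) and MCM3AP (0.10). With scaling to equal totals NUP54 (0.10) and CSE1L (0.023) changed sign. The cause was not tested. Asking for a change beyond 1.5-fold, a choice added after the data were seen, left 4 nucleoporin genes (2 and 2 by direction), 10 receptor genes (3 higher, 7 lower), 19 other transport genes (7 higher, 12 lower) and 6577 of all genes (3462 higher, 3115 lower).

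Replicate numbers did not pair the input libraries. Deviations from the group means of same-numbered libraries correlated at -0.12, -0.02 and -0.09, and with a replicate block 18 nucleoporin and 23 receptor genes were called, as without it.

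Member sites in the Torin1 list numbered 26 without replicate 1 (12 in nucleoporin and 14 in receptor genes) and up to 234 without another replicate (84 and 150). With at least 3 substituted reads they were 48 (15 and 33), and under replicate 1 as well 47 (15 and 32). In the insulin list they were 173 under replicate 1 alone (73 and 100), 155 without replicate 1 (69 and 86), 191 without replicate 2 (84 and 107) and 310 without replicate 3 (131 and 179). With at least 3 substituted reads they were 52 (16 and 36), and under replicate 1 as well 39 (12 and 27). Positions listed under a left-out replicate may also have been found by another. Most sites rested on 1 substituted read, which limits any statement on single sites.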
